A study of Saccharomyces cerevisiae with 4 samples.

Results

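The genes examined here encode the enzymes and regulatory subunits with which budding yeast makes and breaks down its storage sugars, trehalose and glycogen. They are 10 open reading frames (ORFs) chosen by name, TPS1, TPS2, TPS3, TSL1 and NTH1 for trehalose, GSY1, GSY2, GPH1 and GDB1 for glycogen, and PGM2, which serves both. They make up 10 of the 6210 probes of the array. A name match on the first letters of the ORF also picked up an 11th probe, that of YML100W-A, an ORF that shares its name with TSL1 (YML100W). That probe had a value on 1 array only, -0.23 on the log2 scale, and was not tested or counted. The 5A mutant carries RNA polymerase II whose C-terminal domain (CTD) has 5 alanines inserted between pairs of heptapeptide repeats, introduced into yeast strain Z26 by plasmid shuffle. The control cells contained the WT CTD, and the series description has them made by a plasmid shuffle too. Both were grown to log phase in YPD, a rich medium with glucose, and 4 RNA replicates of each strain were hybridized in pairs to 4 spotted oligonucleotide arrays. The paper reports a much longer doubling time in log phase for the mutant than for control cells. Harvest in log phase therefore does not match the strains in growth rate. Whether the ratios of these genes follow that difference was not tested. The 5A RNA carried Cy5 and the control RNA Cy3 on every array. The dyes were not swapped, so any bias of a probe for one dye cannot be told apart from its expression ratio. Whether the replicates were separate cultures, and how many transformant clones they came from, is not given in the sources used here, so the p-values measure the spread between these 4 hybridizations, which may be technical.

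Trehalose is a disaccharide of glucose and glycogen a branched glucose polymer. Budding yeast accumulates both when growth slows, when glucose runs low and under stress, and draws on them when growth resumes. Both routes start from the same sugars: phosphoglucomutase links glucose 6-phosphate to glucose 1-phosphate, UDP-glucose is made from the latter, and the trehalose and glycogen synthases both use UDP-glucose as the donor. In glucose medium protein kinase A holds transcription of many of these genes down, largely by way of the stress transcription factors Msn2 and Msn4, and it also acts on the enzymes themselves, activating neutral trehalase for example. Messenger levels are therefore only part of what sets the amounts of the sugars, which were not measured here.

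Values are log2 ratios of the 5A mutant over the control, so that -1 is a level of 0.5 relative to the control. Between 6022 and 6177 probes had a value on an array, array medians lay between -0.01 and -0.00340, and array 2 correlated with the other arrays with Pearson's r between 0.665 and 0.694 across probes, against 0.855 to 0.878 among arrays 1, 3 and 4. Probes are not independent replicates. RPO21, which encodes the subunit with the CTD, was at -5.67 ± 0.75 and URA3, linked to the WT gene on the plasmid that the shuffle removes, at -4.80 ± 0.38 (SD, n = 4), while LEU2, linked to the mutated constructs, was at -1.94 ± 0.15 (SD, n = 4). All 3 were called by limma (adjusted p = 6.11e-05, 1.75e-05 and 0.000166). Whether the control cells had lost the URA3-linked plasmid cannot be told from the sources used here. Where the RPO21 probe lies relative to the altered CTD sequence is not given in the sources used here.

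All 10 genes had a mean log2 ratio below 0 in the 5A mutant. NTH1, GPH1 and PGM2, which encode neutral trehalase, glycogen phosphorylase and the major phosphoglucomutase, passed the test and fell 2.13-, 1.83- and 1.57-fold. The other 7 did not pass, with means between -0.73 and -0.21. The test was the 2-sided one of limma, run on the 6157 probes measured on 2 or more arrays, with Benjamini-Hochberg adjustment over all of them and a call at an adjusted p under 0.05. It called 20.7% of all probes lower, against 3 of these 10 genes, 19.8% higher, against none of them, and so 40.5% in either direction. The median of the 10 means was -0.50 and the median over all probes tested was -0.01. Only NTH1 passed the 2-fold cut-off on the mean, which 8.66% of all probes passed downwards. TPS2, TPS3 and GPH1, along with NTH1, were below 0 on all 4 arrays, as were 28.1% of the probes with 4 values. The count of 3 called genes rests on which arrays are used, as described with the arrays below.

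**Figure D1:**
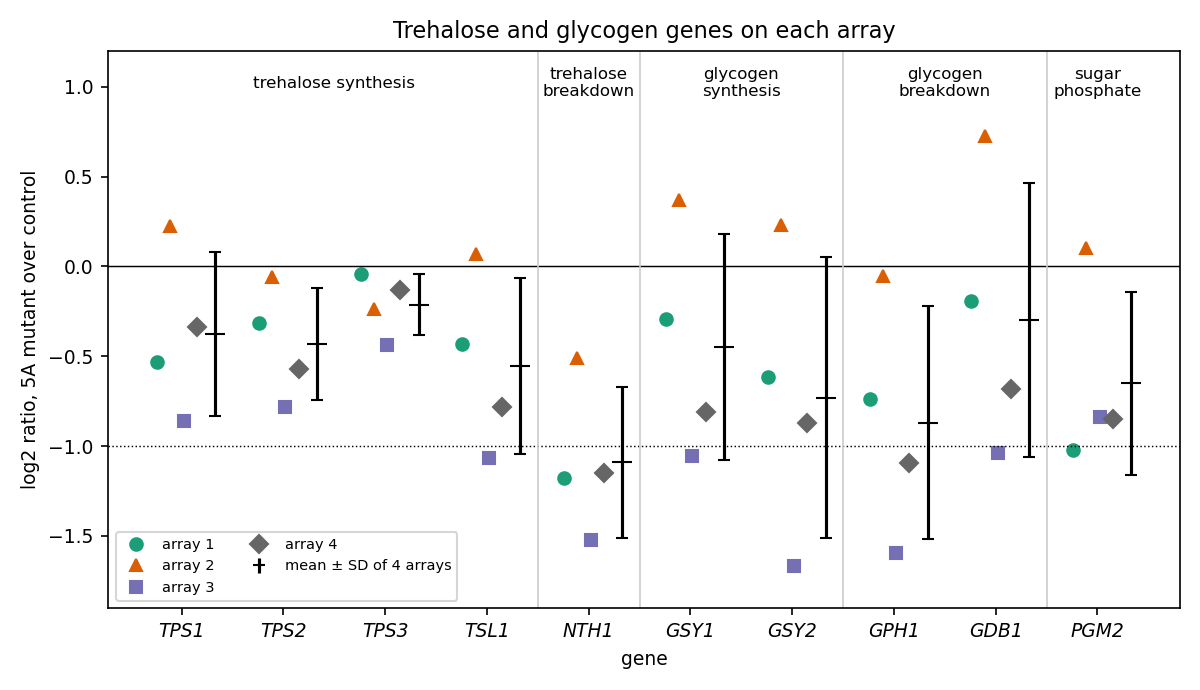
Log2 ratio of the 5A mutant over the control for the 10 trehalose and glycogen genes on arrays 1 to 4, grouped by role, with the mean ± SD of the 4 arrays in black. The dotted line marks -1, a 2-fold lower level. Array 2 gave the highest of the 4 values for 9 of the 10 genes and array 3 the lowest for 9.

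The trehalose synthase complex joins glucose 6-phosphate and UDP-glucose. Tps1 is its synthase, which makes trehalose 6-phosphate, Tps2 is the phosphatase that releases trehalose, and Tps3 and Tsl1 are large regulatory subunits. None of the 4 genes passed the test. TPS1 (YBR126C, chromosome II) had log2 ratios of -0.53, 0.23, -0.86 and -0.34 on arrays 1 to 4, averaging -0.38 ± 0.46 (SD, n = 4, adjusted p = 0.153 by limma). Array 2 alone lay above 0. TPS2 (YDR074W, chromosome IV) had ratios of -0.32, -0.06, -0.78 and -0.57, averaging -0.43 ± 0.31 (SD, n = 4, adjusted p = 0.0639 by limma). Its 4 values were all below 0, with array 2 nearest to it. TSL1 (YML100W, chromosome XIII) had ratios of -0.43, 0.07, -1.07 and -0.78, averaging -0.55 ± 0.49 (SD, n = 4, adjusted p = 0.0615 by limma). Its 95% interval, from -1.02 to -0.09, reached a 2-fold lower level. TPS3 (YMR261C, chromosome XIII) had ratios of -0.04, -0.24, -0.44 and -0.13, averaging -0.21 ± 0.17 (SD, n = 4, adjusted p = 0.230 by limma). This was the mean nearest to 0 and the smallest spread among the 10 genes, and its 95% interval, from -0.52 to 0.10, did not reach a 2-fold difference in either direction.

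NTH1 (YDR001C, chromosome IV) encodes the neutral trehalase of the cytosol, which splits trehalose into glucose and is switched on by protein kinase A. Its log2 ratios were -1.18, -0.51, -1.52 and -1.15 on arrays 1 to 4. The 5A mutant was lower on every array, by more than 2-fold on arrays 1, 3 and 4 and by less on array 2. The mean was -1.09 ± 0.42 (SD, n = 4, adjusted p = 0.00430 by limma), a level of 0.469 relative to the control, with a 95% interval from -1.52 to -0.66. Of the probes tested, 7.23% had a lower mean. NTH1 was the gene with the largest change among the 10, and the only 1 of them called with each array left out in turn, at adjusted p from 0.000807 to 0.0270 by limma.

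Glycogen synthase adds glucose from UDP-glucose to the growing polymer. Gsy2 is its main form and Gsy1 the second isoenzyme. GSY2 (YLR258W, chromosome XII) had log2 ratios of -0.61, 0.23, -1.67 and -0.87 on arrays 1 to 4. The range from array 2 to array 3 was the widest among the 10 genes, and the mean of -0.73 ± 0.78 (SD, n = 4, adjusted p = 0.0750 by limma) was the lowest that was not called. GSY1 (YFR015C, chromosome VI) had ratios of -0.29, 0.37, -1.05 and -0.81, averaging -0.45 ± 0.63 (SD, n = 4, adjusted p = 0.169 by limma). In both genes arrays 1, 3 and 4 were below 0 and array 2 above it.

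Glycogen phosphorylase, Gph1, releases glucose 1-phosphate from the ends of the chains, and the debranching enzyme Gdb1 removes the branch points at which it stops. GPH1 (YPR160W, chromosome XVI) had log2 ratios of -0.74, -0.05, -1.59 and -1.09 on arrays 1 to 4, all below 0. Its mean was -0.87 ± 0.65 (SD, n = 4, adjusted p = 0.0268 by limma), a level of 0.547 relative to the control with a 95% interval from -1.44 to -0.30 on the log2 scale. GDB1 (YPR184W, chromosome XVI) had ratios of -0.19, 0.72, -1.04 and -0.68. Its value on array 2 was the highest of any of the 10 genes on any array, and the mean of -0.30 ± 0.76 was not called (SD, n = 4, adjusted p = 0.414 by limma). Within the 10, the median of the means was -0.87 over the breakdown genes NTH1, GPH1 and GDB1. It was -0.44 over the 6 genes of synthesis. This difference was not tested, and the list leaves out other enzymes of both kinds. Breakdown genes outside the 10 were at -0.22 (NTH2), -0.32 (ATH1) and 0.44 (SGA1). Glycogen synthesis genes outside the 10 were at -0.44 (GLC3), 0.64 (GLG1) and 0.03 (GLG2).

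PGM2 (YMR105C, chromosome XIII) encodes the phosphoglucomutase that provides most of this activity in the cell and joins both storage routes to glycolysis. Its log2 ratios were -1.02, 0.10, -0.84 and -0.85 on arrays 1 to 4. Arrays 1, 3 and 4 lay close together near a 2-fold lower level, and array 2 stood apart from them on the other side of 0. The mean was -0.65 ± 0.51 (SD, n = 4, adjusted p = 0.0410 by limma). Relative to the median of its chromosome, which was at -0.10, PGM2 was at -0.56 and was not called (adjusted p = 0.0638 by limma). Chromosome XIII also carries TPS3 and TSL1, which were at -0.12 and -0.46 on that scale. With every chromosome centred in this way NTH1 and GPH1 were the genes called, 2 of the 10, beside 19.2% of all probes called lower.

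Most of the 10 genes followed a shared order over the arrays. The median of the 10 was -0.48 on array 1, 0.09 on array 2, -1.05 on array 3 and -0.80 on array 4. All 10 were below 0 on arrays 1, 3 and 4, where 50.3% to 50.4% of all probes were, and 4 of the 10 on array 2, where 50.5% of all probes were. Ratios of -1 or lower were found for 2 genes on array 1, none on array 2, 6 on array 3 and 2 on array 4, beside 10.99%, 5.26%, 12.9% and 10.2% of all probes. Array 2 gave the highest value for 9 of the 10 genes, TPS3 being the exception, and array 3 the lowest for 9, PGM2 being the exception. Over the 5955 probes with 4 values, array 2 was highest for 36.8% and array 3 lowest for 27.2%, and array 2 was itself the lowest for 32.2%. These shares cover probes with means on either side of 0. The order among probes with means below 0 alone was not counted. Array 2 also had the narrowest spread over all probes (SD 0.74 against 0.86, 0.97 and 0.89 on arrays 1, 3 and 4). The stress-induced genes described with the other lists had their highest value on array 2 in 14 of 21 cases, and their medians were 0.02, 0.32, -0.42 and -0.28 on arrays 1 to 4. Array 2 was also highest for 6 of 8 other enzyme genes and 7 of 9 glycogen regulators with 4 values. The counts were 7 of 15 for signalling and 2 of 5 for glucose entry. Whether array 2 differs in culture, RNA or labelling was not tested.

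Without array 2 the same fit called 9 of the 10 genes lower, all except TPS3, and it then called 26.1% of all probes lower. GSY2 was at -1.05 (adjusted p = 0.00794 by limma), TSL1 at -0.76 (adjusted p = 0.00847 by limma), GSY1 at -0.72 (adjusted p = 0.0148 by limma), GDB1 at -0.64 (adjusted p = 0.0266 by limma), and TPS1 and TPS2 at -0.58 and -0.56 (adjusted p = 0.0177 and 0.0176 by limma). NTH1, GPH1 and GSY2 passed the 2-fold cut-off in that fit, which 10.6% of all probes passed downwards. With weights estimated for each array, 8 of the 10 were called lower, all except TPS3 and GDB1, beside 28.1% of all probes. Without array 1, array 3 or array 4, NTH1 alone was called, 1 of the 10 beside 12.2%, 12.9% and 12.8% of all probes called lower. GPH1 then had adjusted p of 0.0782, 0.0957 and 0.0975, and PGM2 of 0.159, 0.135 and 0.141. No array left out turned a mean of the 10 genes above 0.

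**Figure D2:**
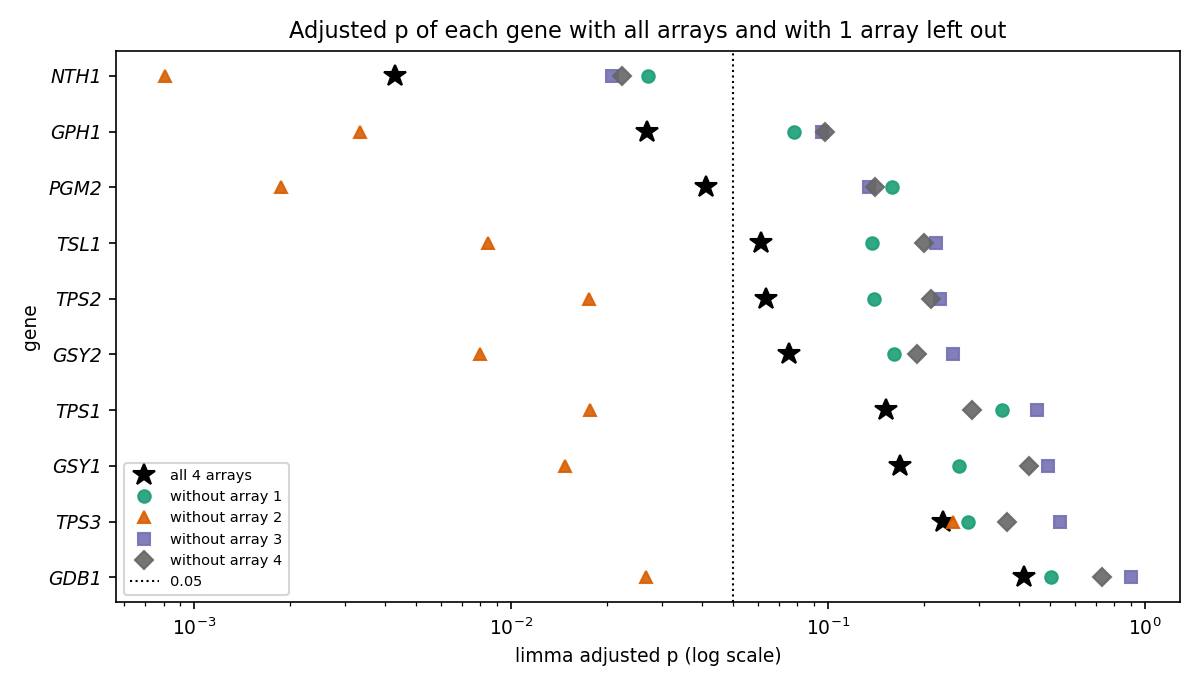
Limma adjusted p of the 10 genes on a log scale, with all 4 arrays (stars) and with 1 array left out (coloured symbols); the dotted line is 0.05. With array 2 left out 9 genes lie left of the line, and with array 1, 3 or 4 left out NTH1 alone does.

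The remaining 8 enzymes of these routes gave a mixed picture, and the 2 that were called were higher. UGP1 (YKL035W), whose product makes UDP-glucose, had log2 ratios of 0.96, 1.31, 0.43 and 0.54 on arrays 1 to 4, averaging 0.81 ± 0.40 (SD, n = 4, adjusted p = 0.0118 by limma). PGM1 (YKL127W), the minor phosphoglucomutase and paralogue of PGM2, had ratios of 0.85, 0.01, 1.22 and 1.14, averaging 0.80 ± 0.55 (SD, n = 4, adjusted p = 0.0239 by limma). The 2 genes are on chromosome XI, where the median over 317 probes was 0.89 and 74.8% of the probes were called higher. With that median subtracted on each array, UGP1 was at -0.08 and PGM1 at -0.08, without a call for either (adjusted p = 0.744 and 0.784 by limma). GLG1 (YKR058W), a glycogenin that primes new glycogen, is the third gene on this chromosome. It was at 0.64 ± 0.60 (SD, n = 4, adjusted p = 0.0615 by limma), and at -0.25 relative to the chromosome median. UGP1 was not called without array 1, nor PGM1 without array 1, 3 or 4.

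The 5 enzyme genes on other chromosomes were not called. GLC3, the branching enzyme, was at -0.44 ± 0.64 and ATH1, the acid trehalase, at -0.32 ± 0.68 (SD, n = 4). Both were above 0 on array 2 alone, at 0.45 and 0.67, and both were called lower without it (adjusted p = 0.00788 and 0.00833 by limma). NTH2, the paralogue of NTH1, was at -0.22 ± 0.19 (SD, n = 4), and GLG2, the second glycogenin, at 0.03 ± 0.26 (SD, n = 4). SGA1, a glucoamylase that degrades glycogen during sporulation, was at 0.44 ± 0.36 (SD, n = 4, adjusted p = 0.0727 by limma) and above 0 on all 4 arrays. It was called relative to the median of its chromosome (adjusted p = 0.0357 by limma).

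**Figure D3:**
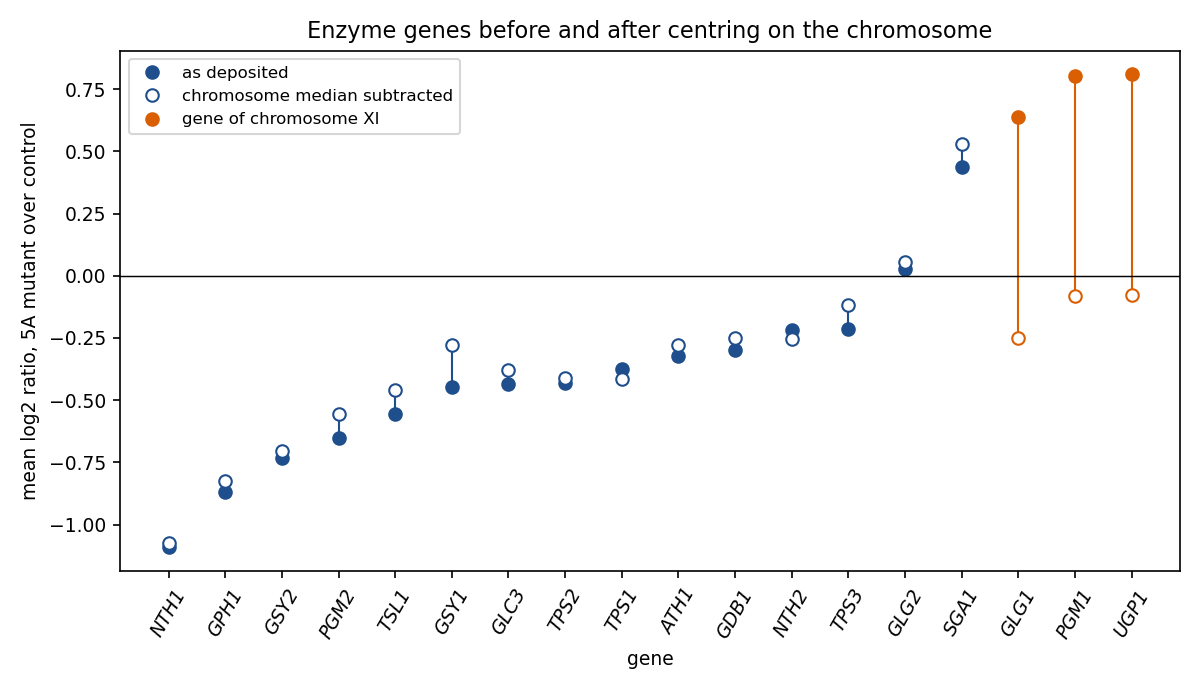
Mean log2 ratio of the 10 genes and the 8 other enzyme genes as deposited (filled) and after the median of the chromosome was subtracted on each array (open). The 3 genes of chromosome XI (orange) move from between 0.64 and 0.81 to between -0.25 and -0.08, whereas the 10 genes stay below 0.

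For 4 pairs of paralogous genes the difference of the log2 ratios was taken on each array. NTH1 was lower than NTH2 on every array, by 0.84, 0.16, 1.57 and 0.93, and the mean of NTH1 minus NTH2 was -0.87 ± 0.58 (SD, n = 4, exact 2-sided sign-flip permutation p = 0.125). GSY1 minus GSY2 was above 0 on every array, averaging 0.28 ± 0.25 (SD, n = 4, exact permutation p = 0.125). PGM2 minus PGM1 was -1.87, 0.10, -2.05 and -1.99 on arrays 1 to 4, averaging -1.45 ± 1.04 (SD, n = 4, exact permutation p = 0.250), and -0.47 after each chromosome was centred. TSL1 minus TPS3 was at -0.34 ± 0.45 (SD, n = 4, exact permutation p = 0.250). With 4 arrays this test cannot go below 0.125, and after adjustment over the 4 comparisons every p was 0.250. Paralogues can share sequence, and cross-hybridization of their probes could not be examined here.

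Among 11 regulators of glycogen synthase and phosphorylase, 10 were tested, 3 were called lower and none higher, against 20.7% and 19.8% of all probes, and the median was -0.23. PIG1, a targeting subunit of the type 1 protein phosphatase, was at -0.84 ± 0.32 (SD, n = 3, adjusted p = 0.0141 by limma). PCL8, a cyclin with which the kinase Pho85 phosphorylates glycogen synthase, was at -0.69 ± 0.36 (SD, n = 4, adjusted p = 0.0171 by limma). GLC7, the catalytic subunit of that phosphatase, was at -0.51 ± 0.30 (SD, n = 4, adjusted p = 0.0364 by limma). The genes called thus include the phosphatase that activates glycogen synthase and a cyclin of the kinase that inhibits it. With 1 array left out, PCL8 and GLC7 were called only without array 2, and PIG1, which had no value on array 4, lost its call without array 3. GLC7 was not called relative to the median of its chromosome (adjusted p = 0.0534 by limma).

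Of 16 genes of protein kinase A signalling and the stress transcription factors, 15 were tested, of which 4 were called higher and 2 lower, against 19.8% and 20.7% of all probes, with a median of -0.10. The count was 2 higher and 2 lower with chromosomes centred, and 2 higher and 0 lower without array 1, array 3 or array 4. Of all probes, 19.2% were called lower with chromosomes centred, and 12.2%, 12.9% and 12.8% without array 1, 3 and 4. PDE1, a cyclic AMP phosphodiesterase, was at -1.42, 0.06, -2.19 and -1.23 on arrays 1 to 4, a mean of -1.20 ± 0.93 (SD, n = 4, adjusted p = 0.0251 by limma). It lost its call without array 1, 3 or 4. MSN4, the stress transcription factor, was at 0.95 ± 0.23 (SD, n = 4, adjusted p = 0.00277 by limma). It is a gene of chromosome XI, and was at 0.07 relative to the median there. TPK3, a catalytic subunit of protein kinase A named after its values were seen, is on the same chromosome. It was at 0.47 ± 0.31 (SD, n = 4, adjusted p = 0.0482 by limma), and at -0.42 relative to that median. RIM15, a kinase of the entry into stationary phase, was at 0.80 ± 0.25 (SD, n = 4, adjusted p = 0.00553 by limma), on chromosome VI, and kept its call with any 1 array left out.

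Glucose enters these routes once it is phosphorylated. Of 5 genes for hexokinases, glucokinases and phosphoglucose isomerase, 4 were called lower and none higher, against 20.7% and 19.8% of all probes, with a median of -0.56. The count called lower was 3 with arrays or chromosomes centred on their medians, 3 without array 2, and 2 without array 1, array 3 or array 4. It was 5 with array weights and with robust eBayes with a trend. Of all probes, 26.1% were called lower without array 2, and 12.2%, 12.9% and 12.8% without array 1, 3 and 4. The share was 19.2% with chromosomes centred and 28.1% with array weights. GLK1, which encodes glucokinase, had log2 ratios of -1.74, -0.34, -2.20 and -1.76 on arrays 1 to 4, averaging -1.51 ± 0.81 (SD, n = 4, adjusted p = 0.00696 by limma). Its paralogue EMI2 was at -0.87 ± 0.35 (SD, n = 4, adjusted p = 0.00660 by limma), and the hexokinase gene HXK1 at -0.56 ± 0.32 (SD, n = 4, adjusted p = 0.0285 by limma). GLK1 and EMI2 were called whichever array was left out, and HXK1 only without array 2. PGI1, the isomerase gene, named after its values were seen, was at -0.37 ± 0.06 (SD, n = 4, adjusted p = 0.0481 by limma) and lost its call with any 1 array left out. HXK1 also lost its call relative to the median of chromosome VI (adjusted p = 0.0967 by limma). HXK2, a hexokinase gene also named after its values were seen, was not called with all 4 arrays in the main fit. Its mean was -0.42 ± 0.24 (SD, n = 4, adjusted p = 0.0531 by limma). Array 2 gave its lowest value, -0.76.

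The trehalose and glycogen genes are commonly induced together with other genes under Msn2 and Msn4. Of 21 stress-induced genes outside these routes, 3 were called lower and 1 higher, beside 20.7% and 19.8% of all probes, and the median was -0.07, against -0.50 for the 10 genes. DCS2, an inhibitor of messenger cap scavenging, was at -0.84 ± 0.70 (SD, n = 4, adjusted p = 0.0376 by limma) and was called with arrays left out only without array 2. HSP78, a chaperone of the mitochondrial matrix, was at -0.76 ± 0.19 (SD, n = 4, adjusted p = 0.00544 by limma). CTT1, the cytosolic catalase, moved the other way, at 0.71 ± 0.12 (SD, n = 4, adjusted p = 0.00545 by limma), with 0.54, 0.83, 0.68 and 0.77 on arrays 1 to 4. Both HSP78 and CTT1 kept their calls with any 1 array left out. Without array 2 the list had 6 genes called lower, beside 26.1% of all probes, and 1 higher. Its median was then -0.26, against -0.74 for the 10 genes. Without array 1, array 3 or array 4, 1 gene of the list was called lower, beside 12.2%, 12.9% and 12.8% of all probes.

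**Figure D4:**
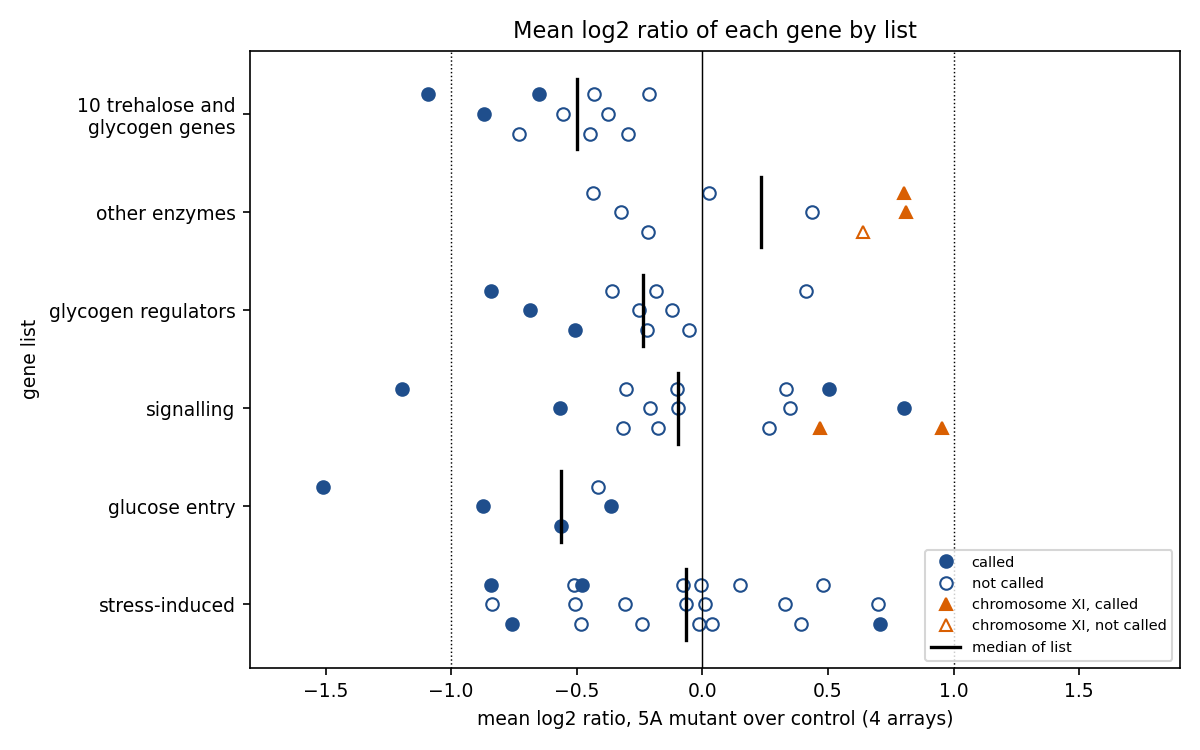
Mean log2 ratio of each tested gene in the 10 trehalose and glycogen genes and in the 5 other lists, with calls filled, genes of chromosome XI as orange triangles and the median of each list as a black bar. Dotted lines mark -1 and 1. The 10 genes and the 5 glucose entry genes lie below 0 throughout, and the other 4 lists lie on both sides of 0.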

How the data were processed

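RNA of the 5A mutant (Cy5) and of the control (Cy3) was compared on 4 Operon oligonucleotide arrays. The authors scanned them with a GenePix 4000B, processed the signals with the BASE web server, and the deposited values are log2 ratios, 1 for each probe on each array. The normalization method is not given in the sources used here. Base 2 and the direction, 5A over control, are not stated with the values. They were inferred from the probes with 4 values, of which 325 had a mean of at least 1 and 493 of at most -1. Both counts match those of genes that the study called up and down at its 2-fold cut-offs. The brightness of the spots was not analysed here, so background, saturation and absolute levels are unknown, and the number of arrays limits the precision.

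The mean of each probe measured on 2 or more arrays (6157 of 6210) was tested against 0 with limma 3.58.1 (R 4.3.3). Tests used eBayes and Benjamini-Hochberg adjustment at 0.05. The 2-fold and 0.5-fold cut-offs were applied to the mean. Symbols came from the RefSeq table of assembly R64 (5724 probes matched). Other steps used Python 3.11.15, numpy 2.4.6, scipy 1.17.1, pandas 2.3.3 and matplotlib 3.10.9. The fit was also run on simulated data with independent noise on each array and 200 changed probes of 6157. It recovered 87% of them, and 5.43% of its calls were false. The real data have 40.5% of probes called and an array 2 unlike the rest, so these rates need not hold for them. Recovery also depends on the size of a change. The 87% therefore does not bear on whether changes as small as those of the uncalled genes would be found.

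The 10 genes and the 5 other lists were chosen with earlier results of these data known. Named are the 10 genes, the other 8 enzymes, in each other list the 3 called genes with the largest means in size, RPO21, URA3 and LEU2, the 5 genes outside the lists nearest to the profile of the gene with the largest mean in size, and an adjacent gene where it and its neighbour among the 10 were both called. Alternatives were array centring, a common array spread, 4 values required, robust eBayes with a trend, array weights, medians over arrays, chromosome centring, the 2-fold rule and each array left out. No sequences were used here.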

Additional observations from a re-analysis of the deposited data

Results flagged for a closer look

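In 3 of the 37 sets of values examined, 1 array stood far from the rest, and chance gives about 1 in 20. PGM2 was at 0.10 on array 2 against -1.02 to -0.84 on the other arrays. PGM2 minus PGM1 was at 0.10 on array 2 against -2.05 to -1.87, and shares its PGM2 values with the first. LEU2 was at -2.16 on array 1 against -1.89 to -1.83.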

How the results depend on the processing

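The number of the 10 genes called was 3 with all arrays and between 1 and 9 with 1 array left out. It was 8 with array weights, a fit that called 3388 of all probes, and 1 under the 2-fold rule. The median of the 10 means lay between -0.74 and -0.35 with 1 array left out and between -0.66 and -0.44 under the other alternatives. Over all probes the fit called 2495, between 1438 and 3120 with 1 array left out, and 887 passed the 2-fold rule. Of the 61 genes in the other lists it called 19, between 7 and 24 with 1 array left out, and 2 passed the 2-fold rule. The mean of each of the 10 genes stayed below 0 under every alternative run. Centring each chromosome turned UGP1 to -0.0776, PGM1 to -0.0830 and GLG1 to -0.25, all genes of chromosome XI. GLG2, near 0, was at -0.0898 with array weights and -0.00906 as a median over arrays, and lay between -0.0815 and 0.11 with 1 array left out. The 4 differences between paralogues kept their sign. Each array holds a ratio of a 5A and a control RNA, so the test of the mean against 0 is itself paired by array.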

Other observations

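Called genes of the 10 had 4 measured neighbours, of which 1 was called, beside 40.5% of all probes. This was the kinase gene YPK2, next to PGM2 on chromosome XIII. It was at -0.57 ± 0.43 (SD, n = 4, limma adjusted p = 0.0455). The measured neighbours of NTH1, RMD1 and YRB1, were at -0.08 and 0.14, and that of GPH1, SGV1, at -0.02, and none of these 3, named after their values were seen, was called. The 10 genes together had 16 measured neighbours, and of all probes 20.7% were called lower and 19.8% higher. Beside the genes of the 10 that were not called, ARG81, HSP60, AIP5, CMK1 and DPM1 were called lower. They were at -0.81, -0.80, -0.57, -0.54 and -0.46. PTC4 was called higher, at 0.53, and the other measured neighbours were not called. These genes too were named after their values were seen.

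Of 5884 probes outside the lists with 4 values, the 5 nearest to the 4 log2 ratios of NTH1 were those of MDJ2, GPI11, ZRG17, SYG1 and MPD1. Their root mean square distances over the 4 arrays were 0.0776, 0.0917, 0.109, 0.121 and 0.127 on the log2 scale. MDJ2 was at -1.28, -0.48, -1.51 and -1.04 on arrays 1 to 4. Likeness over 4 arrays is a description, and how many probes share such a profile was not counted.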
